A study of Caenorhabditis elegans with 2 samples.

Results

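The genes described here encode the SUMO pathway of Caenorhabditis elegans, and the measurement is where the protein LIN-13 was recovered on the DNA at and around them. They were chosen by name, 6 of the 19973 protein-coding genes of the WBcel235 annotation, and all 6 were found in it. A region was counted for a gene when its summit, the position of the highest signal, lay in the gene body or within 1000 bp of it. Chromatin immunoprecipitation and sequencing (ChIP-seq) was done on mixed-stage embryos of strain OP51, of mixed sex, which carry the unc-119(ed3) mutation on chromosome III and the integrated transgene wgIs51 for LIN-13 fused to eGFP. The 2 biological replicates were all of this genotype and stage, and no second condition was analysed here. The target is labelled as the tagged protein and the antibody as lin-13, so recognition of the tag and of LIN-13 itself cannot be told apart. The tissue in which the transgene is active is not given in the sources used here.

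SUMO is a small protein that is attached to lysines of other proteins, many of them in the nucleus, and changes what they bind. Its precursor is trimmed by a protease, activated by an E1 enzyme made of a pair of subunits, passed to a single E2 enzyme and placed on targets with the help of E3 ligases, while proteases of the same family remove it again. In the worm the pathway is needed for embryonic development, and it has been linked to repression by synthetic multivulva (synMuv) genes, the group to which lin-13 belongs. The members in order of their step are smo-1, which encodes SUMO itself, aos-1 and uba-2, which encode the E1 subunits, ubc-9, which encodes the E2, gei-17, which encodes an E3 ligase of the PIAS type, and ulp-1, which encodes a SUMO protease.

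The regions came as ranked lists. Each replicate had a list of 30000 regions, a pooled list of 30000 came from both replicates together, and the final set of 1534 regions was made by IDR, the irreproducible discovery rate, which scores a region by the agreement of its rank between replicates. Its members were exactly ranks 1 to 1534 of the pooled list. Of these, 1373 had a summit within 100 bp in both replicate lists, so membership alone does not mean a match in each replicate. Regions past rank 1534 missed the authors' threshold, and the labels of these longer lists say that they include background. The signal of a region is the authors' peak caller value, on a scale of its own in each list, and rank 1 is the strongest. Read counts are not part of the lists, which leaves the depth unknown and gives no counting error. Members are not replicates of each other, and no test was run on them.

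LIN-13 regions above the IDR threshold stood before smo-1 and ubc-9, the genes for SUMO and its E2 enzyme, and at none of the other 4 members. Over all protein-coding genes 10.7% had such a region by the same rule (2142 of 19973). The members were proposed with these results known, so nothing is read from 2 of 6 about the group. Around the transcription start sites (TSSs) alone, from 1000 bp before to 200 bp after, the count was again 2 of 6, smo-1 and ubc-9, beside 8.15% of all protein-coding genes. With 2000 bp on either side of the gene body it was also 2 of 6, beside 13.7%. The first 1534 regions of replicate 1 alone gave these 2 genes and no other member (10.4% of all protein-coding genes), as did those of replicate 2 alone (10.1%).

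Sequences are shown for the E2 gene, which carries a final region, and for an E1 subunit and the protease, which have no region of any list in the bases before their start. The first is the ubc-9 region at chrIV:4650655-4650918 (plus strand), without its first 20 bases, which lie inside the gene F29B9.7. The others are the whole stretch between the gene before it and the start of aos-1, at chrV:10130296-10130398, and of ulp-1, at chrIII:5169800-5169932, both on the minus strand. They are read 5′ to 3′ from the RefSeq WBcel235 genome, which is ce11. Capitals in ubc-9 mark E2F-like words and a zinc finger type word, and capitals at the end of the other stretches mark TTNCAG directly before the annotated start.
ubc-9 region: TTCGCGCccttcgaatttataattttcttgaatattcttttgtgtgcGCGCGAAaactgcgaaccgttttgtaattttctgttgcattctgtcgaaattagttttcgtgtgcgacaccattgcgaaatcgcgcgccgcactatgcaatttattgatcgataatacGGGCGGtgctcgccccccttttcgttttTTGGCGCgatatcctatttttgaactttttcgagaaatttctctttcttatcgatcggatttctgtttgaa
aos-1 gap: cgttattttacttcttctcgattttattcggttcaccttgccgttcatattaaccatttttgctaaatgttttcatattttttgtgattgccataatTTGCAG
ulp-1 gap: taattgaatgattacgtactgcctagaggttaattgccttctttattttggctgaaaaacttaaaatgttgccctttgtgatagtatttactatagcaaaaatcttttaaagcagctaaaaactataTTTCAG

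Both strands were searched. The E2F-like words, counted together, were TTCCCGC, together with the word TTCGCGC, then the word TTGCCGC, and lastly the word TTGGCGC. The zinc finger type words were CCACCC, and counted together with it the word CCGCCC. The third kind was GAGA repeated without a gap to 8 letters. Within 100 bp of the ubc-9 summit lay TTCGCGC once, the E2F-like word TTGGCGC once, and the zinc finger type word CCGCCC once. The printed region holds a further TTCGCGC at its first base, farther from the summit. An E2F-like word also lay 18 bp from the smo-1 summit. At least 1 E2F-like word was therefore within 100 bp of both final regions, beside 20.3% of all 1534 final regions and 10.8% of 27480 pooled regions over 1000 bp from any of them. A zinc finger type word was found at 17.8% of the final regions and 11.6% of the 27480 lower-ranked ones. The GAGA repeat, at neither member, was found at 8.67% and 3.01%, so all 3 kinds were less frequent in the lower-ranked regions. Around the best pooled summits of the other members, gei-17 had 2 E2F-like words, and uba-2, aos-1 and ulp-1 had no match to any of these words. A match describes letters, not a bound factor. GC content in these windows was 45.8% at smo-1 and 42.8% at ubc-9. The median was 44.8% over the final regions and 40.3% over the lower-ranked ones. At the other members it was 31.8% at uba-2, 39.8% at gei-17, 37.3% at aos-1 and 37.8% at ulp-1.

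The gene for SUMO had the strongest region of the 6. smo-1 (WBGene00004888) lies on chromosome I at 1340678 to 1341265 on the plus strand and is short, 588 bp, a length that 7.74% of protein-coding genes do not exceed. Its region spanned 1340040 to 1340323 in intergenic sequence, with the summit 496 bp upstream of the annotated TSS, the nearest TSS of any gene. The signal was 69.1 in the pooled list, 29.9 in replicate 1 and 37.4 in replicate 2, on 3 separate scales. The ranks were 379, 342 and 553, so it stood inside the first 1534 in each list. The replicate summits lay 7 and 8 bp from the pooled summit. The same summit was 745 bp downstream of the TSS of K12C11.7, the gene before smo-1 on the same strand, which ends 904 bp before smo-1 starts. The best rank at a gene, from the body and 1000 bp on either side, was as good as that of smo-1 in 3.25% of protein-coding genes in the pooled list, 2.85% in replicate 1 and 4.42% in replicate 2.

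The remaining smo-1 regions were weak. A region with its summit in a coding exon of the neighbour K12C11.1, 752 bp downstream of the smo-1 TSS, had pooled rank 4868 and was in both replicate lists, at ranks 9138 and 14428. A region inside the gene itself, with its summit in a coding exon 300 bp downstream of the TSS, had pooled rank 12651 and rank 4386 in replicate 1, and no match in replicate 2. The last had pooled rank 29172 and no summit within 100 bp in either replicate, though it overlapped the replicate regions of ranks 9138 and 14428.

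The E2 gene ubc-9 (WBGene00006706) carried the other final region, at a lower rank. It lies on chromosome IV at 4651044 to 4652447 on the plus strand. The region spanned 4650635 to 4650918, with its summit in intergenic sequence 267 bp upstream of the TSS, and no other gene had a TSS within 1000 bp of that summit. The signal was 42.8 in the pooled list, 22.9 in replicate 1 and 22.2 in replicate 2. The ranks were 1007, 580 and 1491, so replicate 2 held it just inside its first 1534. The summit was at the same base in replicate 1 and 17 bp away in replicate 2. A best rank as good as this was found in 7.49% of protein-coding genes, 4.59% in replicate 1 and 9.86% in replicate 2. The stretch between F29B9.7 and ubc-9 is 389 bp long, and its single summit in each list was this region. Within the gene, a region in the 3′ untranslated region had pooled rank 12912 and a summit within 100 bp in replicate 1 alone. It also overlapped a replicate 2 region of rank 10024.

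**Figure D1:**
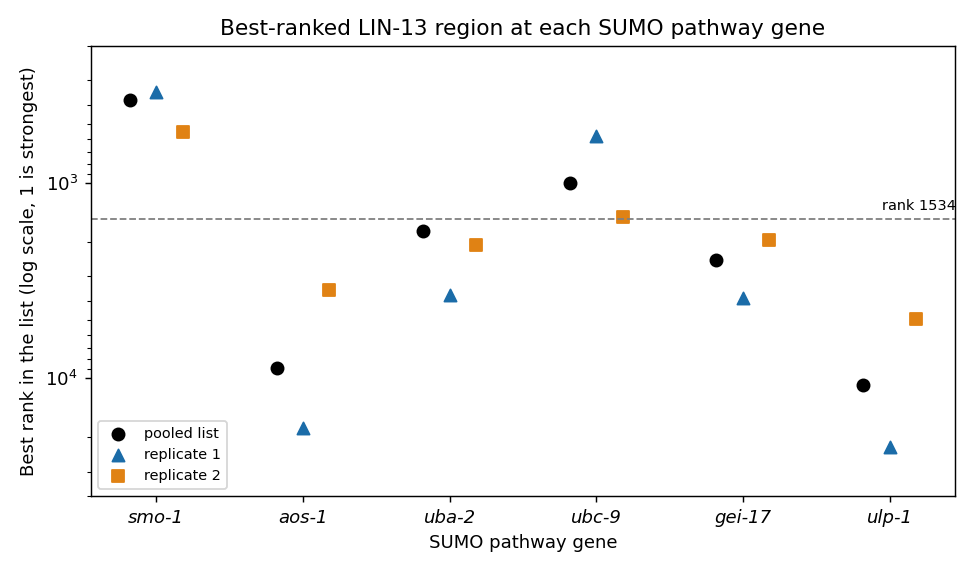
Best rank of a region at each SUMO pathway gene (y axis, log scale, 1 is strongest) in the pooled list (circles), replicate 1 (triangles) and replicate 2 (squares), which need not be the same region. smo-1 and ubc-9 lie above the dashed line at rank 1534 in all 3 lists, and the other 4 genes lie below it in all 3.

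The E1 subunits differed from each other in rank, with uba-2 close below the threshold and aos-1 far from it. uba-2 (WBGene00006700), which encodes the catalytic subunit, lies on chromosome I at 12741588 to 12749562 on the plus strand. Its best region, at 12741148 to 12741431, had pooled rank 1761 and a signal of 29.9, where the last final region had 32.8. The signal was 7.95 in replicate 1 and 18.9 in replicate 2, at ranks 3769 and 2074, and the summits lay 1 and 4 bp from the pooled summit. The position therefore recurred, while the region was outside the first 1534 of both replicates. A best rank as good as that of uba-2 was found in 11.9% of protein-coding genes in the pooled list, 20.3% in replicate 1 and 12.7% in replicate 2. The summit lies in the 312 bp between uba-2 and vps-25, a gene on the opposite strand for a subunit of the ESCRT-II complex. It was 298 bp upstream of the uba-2 TSS and 15 bp upstream of a vps-25 TSS, so the region cannot be given to either gene alone.

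The other uba-2 regions were found mostly in replicate 2. A region with its summit in introns of vps-25 and toe-4, 767 bp upstream of the uba-2 TSS, had pooled rank 5052 and rank 2880 in replicate 2, with no match in replicate 1. The 4 further pooled regions lay in the gene body at ranks from 13540 to 23550. Each had a summit within 100 bp in 1 replicate list. That of rank 13540 was matched in replicate 1, at rank 28582. It also overlapped a replicate 2 region of rank 4549. In all, uba-2 had 9 regions in the list of replicate 2 and 2 in that of replicate 1. With 7975 bp, a length that 92.4% of protein-coding genes do not exceed, it also had the widest window of the 6.

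aos-1 (WBGene00000142), the gene for the other E1 subunit, lies on chromosome V at 10127492 to 10130295 on the minus strand. Its best pooled region had rank 8826 and a signal of 13.2, with the summit in a coding exon 725 bp downstream of the TSS. Replicate 2 held this region at rank 3519 with a signal of 15.3, and replicate 1 did not hold it. The single replicate 1 region of aos-1 had rank 17995 and lay beyond the 3′ end, in a coding exon of C08B6.10. The second pooled region had rank 19884 and no summit within 100 bp in either replicate, though it overlapped that replicate 1 region. A best rank as good as that of aos-1 was found in 34.6% of protein-coding genes in the pooled list, 56.1% in replicate 1 and 18.6% in replicate 2.

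The E3 gene gei-17 had a region before its start that ranked far better in replicate 2 than in replicate 1. gei-17 (WBGene00001574) lies on chromosome I at 9100843 to 9108140 on the minus strand and has 8 annotated TSSs. The region, at 9108741 to 9109024, had pooled rank 2484 and a signal of 23.9. Its rank in replicate 2 was 1966, with a signal of 19.5. Replicate 1 had no summit within 100 bp of the pooled one, and its nearest region there, at 9108653 to 9108872, had rank 17600 and a signal of 3.67. The summit was 743 to 1344 bp upstream of the 8 TSSs, in an intron of nduf-7, the gene before gei-17 on the same strand. The best region of replicate 1, at rank 3896, was instead near the 3′ end, in the 3′ untranslated region of mef-2, 7153 bp downstream of the nearest gei-17 TSS. The best-ranked regions of the replicates thus lay at opposite ends of this gene. For gei-17 the share of protein-coding genes with a best rank as good was 15.4% in the pooled list, 20.8% in replicate 1 and 12.3% in replicate 2. The gene is long, 7298 bp, a length that 91.1% of protein-coding genes do not exceed. Best ranks, here and at the other members, were not adjusted for the width of the window.

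The protease gene ulp-1 had no region that ranked well in the pooled list. ulp-1 (WBGene00006736) lies on chromosome III at 5165659 to 5169799 on the minus strand. Its 4 pooled regions had ranks of 10803, 12174, 18376 and 21464 and signals of 12.1, 11.5, 9.46 and 8.71. Each was matched in replicate 2, at ranks 14114, 12957, 4952 and 16503, and replicate 1 matched none within 100 bp. Replicate 1 had a single region here, at rank 22384, with its summit in a coding exon 197 bp downstream of the TSS. This replicate 1 region overlapped the pooled region of rank 12174. A best rank as good as that of ulp-1 was found in 39.3% of protein-coding genes in the pooled list, 62.9% in replicate 1 and 23.5% in replicate 2. Any pooled region by this rule was found in 66.3%.

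**Figure D2:**
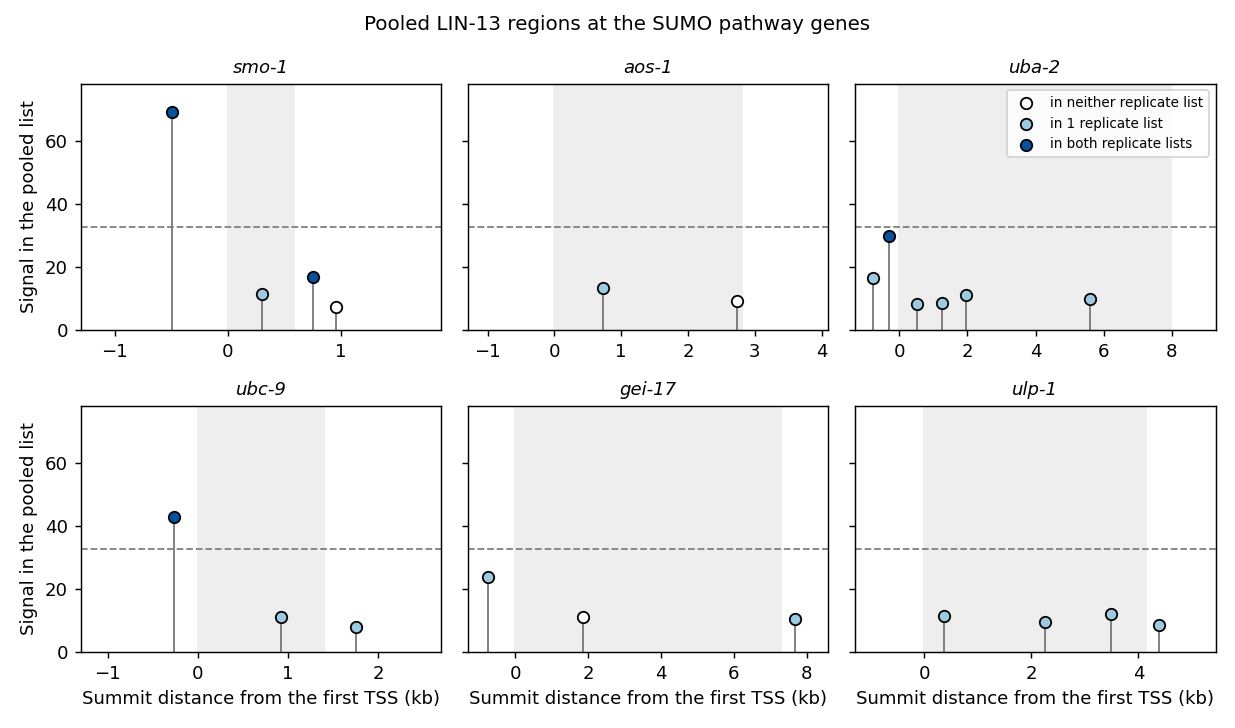
Signal in the pooled list (y axis) of the 22 pooled regions at the 6 genes against the distance of the summit from the outermost TSS (x axis, kb, negative is upstream), with the gene body shaded and fill showing in how many replicate lists a summit lay within 100 bp. Only the smo-1 and ubc-9 regions exceed the dashed line at 32.8, the signal of the last final region.

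Of 22 pooled regions at the members, 4 had a summit within 100 bp in both replicates, beside 18.3% of all 30000 pooled regions (5476), which is about the same share. The 4 were the 2 final regions, the best uba-2 region and the smo-1 region of rank 4868. Among all pooled regions the share matched in both was 89.5% for ranks 1 to 1534, 49.8% for ranks 1535 to 5000, 18.5% for ranks 5001 to 15000 and 3.51% beyond. The members had 2 of 2, 2 of 3, 0 of 8 and 0 of 9 in these ranges. Of the lists, replicate 1 held 15 member regions and replicate 2 held 21. The pooled list held 0.299 regions per kb of the genome, and from 0.323 per kb at gei-17 to 1.55 per kb at smo-1 in the windows of the members. The smo-1 value rests on 4 regions in a short window. The genome value includes sequence far from genes, and the windows of all protein-coding genes were not measured this way. Nothing is therefore read from the difference. Just inside the 1000 bp limit was the uba-2 region at 767 bp, of rank 5052, and just outside it a region 1184 bp from ulp-1, of rank 24917.

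**Figure D3:**
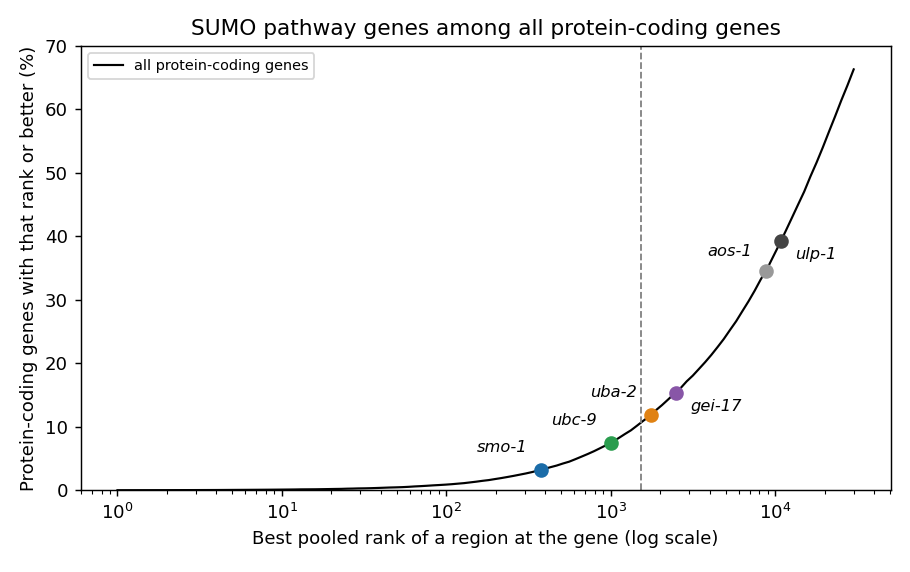
Share of all 19973 protein-coding genes (y axis, %) whose best pooled rank is at or above the rank on the x axis (log scale), with the 6 SUMO pathway genes marked and a dashed line at rank 1534. smo-1 stands at 3.25% and ubc-9 at 7.49%, uba-2 and gei-17 follow at 11.9% and 15.4%, and aos-1 and ulp-1 stand at 34.6% and 39.3%.

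The members differed in what lies before their start, which the choice of genes did not use. aos-1, gei-17 and ulp-1 each follow a gene on the same strand, at 103 bp after wdr-20, 32 bp after nduf-7 and 133 bp after prp-19. None of these 3 stretches held a summit in the pooled list or in either replicate. At smo-1, ubc-9 and uba-2 the stretches were longer, 904, 389 and 312 bp, and each held a summit in all 3 lists. How often stretches of these lengths hold a summit over all genes was not tested. Nothing is therefore read from the absence in the shorter stretches or from the summits in the longer ones. Many worm genes that follow another as closely as aos-1, gei-17 and ulp-1 are transcribed as operons and receive their 5′ end by trans-splicing. Operons were not annotated in the sources used here. Of 1878 protein-coding genes that start within 200 bp after a gene on the same strand, 7.24% had a final region by the rule used above, against 10.7% of all. That rule also reaches into the gene before. Whether closeness to it bears on the regions of the members was not tested. In the annotation, 17.8% of 29773 protein-coding TSS positions are directly preceded by TTNCAG, the form of a splice acceptor. This was so for the TSSs of aos-1, uba-2, ubc-9 and ulp-1 and for none of smo-1 or gei-17. Trans-splicing in the worm can leave an annotated start downstream of where transcription begins, and all distances here are to the annotated position. The 200 bp limit and this word were chosen after the regions had been seen.

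Regions at the start of the gene before aos-1, gei-17 and ulp-1 varied. prp-19, a splicing factor gene before ulp-1, had a final region in its promoter window, on chromosome III at 5172650 to 5172744, with a signal of 100.3 and pooled rank 149, and ranks of 293 and 139 in the replicates. Its summit was 663 bp upstream of prp-19 but 12 bp from the TSS of K10D2.5 on the other strand, and 2909 bp from ulp-1. It was the nearest final region to ulp-1. At wdr-20, before aos-1, the best region of the promoter window had pooled rank 3349 and a signal of 20.1, with ranks of 634 in replicate 1 and 13153 in replicate 2. At nduf-7, before gei-17, the best had pooled rank 10673. The nearest final summit was 13450 bp from uba-2, 23374 bp from gei-17 and 47922 bp from aos-1, where the median over all protein-coding genes was 22231 bp.

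By rank in all 3 lists, other final regions resembled those of smo-1 and ubc-9 closely. Likeness was the Euclidean distance between log10 ranks in the pooled list and the replicates, over the 1373 final regions present in all 3. Nearest to smo-1 were the regions by eif-3.E, a translation initiation factor gene, with ranks of 383, 347 and 495, and by R10E4.1, with ranks of 385, 315 and 609, at distances of 0.049 and 0.055. Nearest to ubc-9 were those by fcd-2, the gene for a Fanconi anaemia protein of DNA repair, with ranks of 1001, 610 and 1496, and by ZK858.6, with ranks of 965, 626 and 1396, at distances of 0.022 and 0.048. The median ranks of the 1373 were 814 in replicate 1 and 770 in replicate 2.

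**Figure D4:**
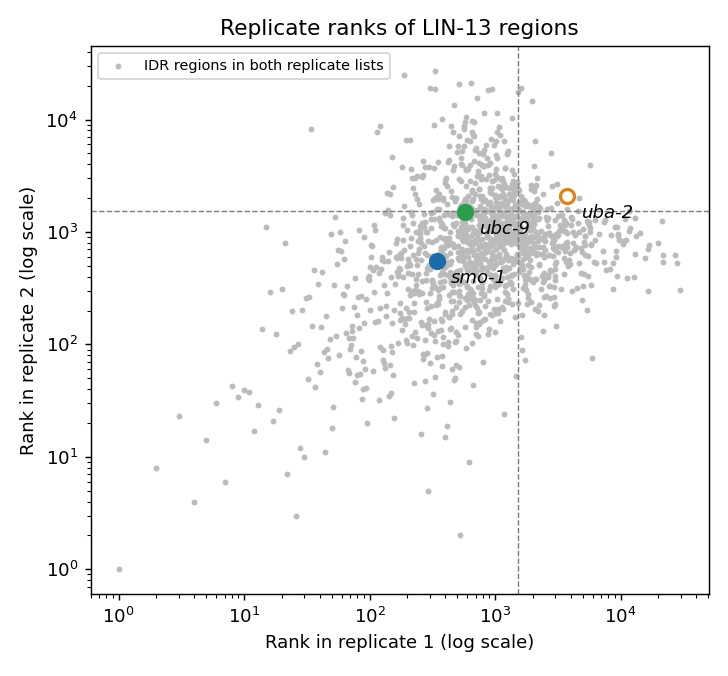
Rank in replicate 1 (x axis) against rank in replicate 2 (y axis), both on log scales, for the 1373 final regions present in both replicate lists (grey), with smo-1 and ubc-9 filled, the best uba-2 region open and dashed lines at rank 1534. smo-1 lies at 342 and 553, ubc-9 at 580 and 1491, and uba-2 at 3769 and 2074, outside both lines.

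Among further SUMO genes, 1 of 3 found in the annotation had a final region, ulp-2, beside 10.7% of all protein-coding genes, and its position was at the far end of the gene. The list was chosen with results known, and nothing is read from its count. ulp-2 encodes a second SUMO protease. The region, on chromosome II at 4955426 to 4955709, had pooled rank 1174 and a signal of 38.7, rank 1557 in replicate 1 and no summit within 100 bp in replicate 2. It lay in the 3′ untranslated region of ulp-2 and 141 bp from the TSS of pbs-3, a proteasome subunit gene. At the start of ulp-2 itself a region 51 bp upstream of the TSS had pooled rank 1574 and a signal of 32.2, close below the threshold, with ranks of 4031 and 1847. The best pooled rank of ulp-4 was 5038, and ulp-5 had no pooled region. ulp-4 and ulp-5 are named after their values were seen. The symbol mms-21 was not matched in the annotation.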

How the data were processed

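LIN-13 ChIP-seq of 2 biological replicates, 1 group by the labels, was used through 4 deposited ce11 lists in narrowPeak format: the IDR list, the pooled list and a list per replicate. The deposited text listing of the files traces a replicate list to the alignments of that replicate with a control, the pooled list to all alignments, and the IDR list to these lists. No aligner, peak caller, IDR threshold or version is given in the sources used here. Column 7 of the deposited lists is the caller's signal per region, used to rank regions within a list. The deposited −log10 q value, in column 9, entered no result. The 4 ce10 lists were not used.

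The summit was column 2 plus column 10, written counting from 1. Genes, TSSs and features came from Ensembl release 115 for WBcel235 (ce11), and bases from the RefSeq genome of that assembly. Summits within 100 bp counted as matched between lists. Gene assignment and matching were tested on simulated data. Python 3.11.15 with pandas 2.3.3 was used. The members and lists were chosen with earlier results of these data known. The genes named were the 6 members, genes with a TSS within 1000 bp of a final summit, the 2 regions nearest in rank, and listed genes with a final region; the genes before the members and genes at other summits were added after values were seen. Alternatives were other windows, overlap, stricter sets, nearest TSS, single replicates, match distances and motif windows. No test was made, since there was 1 group.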

Additional observations from a re-analysis of the deposited data

How the results depend on the processing

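The count of 2 members with a final region, smo-1 and ubc-9, was the same with windows of 500 and 2000 bp, the promoter window, overlap in place of the summit, the nearest coding TSS, regions in the top of both replicates and each replicate alone. It was 1, smo-1, in the upper 767 regions of the IDR list. The share of all protein-coding genes was 5.99% in those 767, 6.22% for regions in the top of both replicates and 6.39% by nearest TSS, against 10.7%. With a window of 500 bp it was 8.84%, and by overlap 11.1%. With a window of 500 bp the best pooled rank of gei-17 was 13194 in place of 2484, since its upstream region lies beyond that window. In the lists of single replicates the best rank ranged from 342 to 553 for smo-1, 580 to 1491 for ubc-9, 2074 to 3769 for uba-2, 1966 to 3896 for gei-17, 3519 to 17995 for aos-1 and 4952 to 22384 for ulp-1. Member regions matched in both replicates numbered 3 within 50 bp and 9 both within 250 bp and by any overlap, against 4. The share of all pooled regions matched in both replicates was not measured at these other settings. These counts therefore cannot be set against the share given for the main match distance, and nothing is read from the change. Within 50 bp of the summit, 1 of the 2 final member regions had an E2F-like word, beside 13.8% of all 1534 final regions. No paired analysis was possible because there was a single group. Depth is unknown, so how it limits the weaker regions was not tested.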

Other observations

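Of 15 genes for other ubiquitin-like modifiers and their enzymes, 5 had a final LIN-13 region by the same rule, beside 10.7% of all protein-coding genes. This list and the next were chosen with results known, and nothing is read from their counts. These were ubq-2, a gene for ubiquitin fused to a ribosomal protein, uba-5, the E1 gene of the UFM1 pathway, urm-1, a ubiquitin-related modifier gene, lgg-1, an autophagy gene of the Atg8 family, and ubc-12, the E2 gene of the NEDD8 pathway. Their pooled ranks were 365, 582, 786, 819 and 1109. The ubq-2 summit was 475 bp upstream of its TSS but 164 bp from that of frg-1, and the ubc-12 summit was 256 bp upstream but 43 bp from that of rbm-3.2, so these regions cannot be given to a single gene.

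Of 12 genes for proteins known as SUMO substrates or partners in the worm, 5 had a final region, beside the same 10.7% of all protein-coding genes. The mep-1 region, at a zinc finger gene, was 204 bp upstream of the TSS, in noncoding exons of M04B2.11 and M04B2.13. It had pooled rank 1332 and rank 358 in replicate 1. Replicate 2 had no summit within 100 bp of it, and its best region at mep-1 had rank 3560. The sop-2 region, at a gene of Polycomb-like repression, had its summit 600 bp upstream and pooled rank 1246, with ranks of 1326 and 2080. At air-2, the Aurora B kinase gene, the summit was 78 bp upstream and the pooled rank 1362, with ranks of 1545 and 1851, outside the first 1534 of both replicates. The hmr-1 region, at the cadherin gene, lay in an intron 1436 bp upstream of the nearest hmr-1 TSS, with pooled rank 1018. Its ranks were 2064 and 646, outside the first 1534 of replicate 1. The pie-1 region, of pooled rank 731, lay 1177 bp downstream of the pie-1 TSS and 261 bp from that of snr-6. Its ranks were 2086 and 645, also outside the first 1534 of replicate 1.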
